A study of Homo sapiens with 6 samples.

Results

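The enzymes described here are those by which a prostate cancer cell can make or convert androgens within the tumor. They were chosen as a named set of 10 genes, AKR1C1, AKR1C2, AKR1C3, HSD3B1, HSD17B4, HSD17B10, HSD17B11, SRD5A1, SRD5A3 and STS, out of 35554 genes in the table of counts. RNA-Seq was performed on parental LNCaP (n = 3), an established human prostate cancer cell line that grows in response to androgen, and on LNCaP-enzaR (n = 3), its derivative resistant to enzalutamide, a drug that blocks the androgen receptor. LNCaP-enzaR was derived by continuous exposure to enzalutamide and then maintained on less of it, as the study's methods describe. The medium at harvest, and so the steroids it held, is not given in the labels. LNCaP-enzaR is a single resistant line, and whether it is a clone is not stated. The labels give separate flasks for the replicates. They leave unsaid if enzalutamide was in the flasks at harvest, so resistance and exposure to the drug cannot be told apart. P-values therefore measure the spread between flasks of 2 lines.

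Androgens are made from cholesterol or, within tumors, from weaker precursors that circulate in blood. Steroid sulfatase frees the precursor DHEA from its sulfate, 3-beta-hydroxysteroid dehydrogenase turns DHEA into androstenedione, 17-beta-hydroxysteroid dehydrogenases of the AKR1C and HSD17B families interconvert androstenedione and testosterone, and steroid 5-alpha-reductases turn testosterone into dihydrotestosterone, the most potent natural androgen. Other AKR1C enzymes and 17-beta-hydroxysteroid dehydrogenases inactivate dihydrotestosterone, so the same families hold enzymes of synthesis and of removal.

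Libraries held 77759122 to 98616465 counts. Expression is given as CPM, counts per 1000000 after scaling of the libraries, and a level of 3 counts was 0.0302 to 0.0382 CPM. Markers of prostate luminal cells, summed over 9 genes that were all in the table, reached 5080 to 5200 CPM in parental LNCaP and 3020 to 3320 in LNCaP-enzaR. They did not move evenly. Of the 9, 6 were lower, with log2 fold changes from −0.63 (FOLH1) to −4.73 (SLC45A3), and KLK3 at −3.08. KRT8 was higher (1.16), and 2 did not pass the threshold given below. Of 4 basal markers, KRT5 and TP63 had at most 3 counts in every library and the sum was at most 1.71 CPM. Fibroblast markers, 5 of 7 of which were in the table, summed to 14.7 to 17.9 CPM in parental LNCaP and to 8.21 to 8.95 in LNCaP-enzaR. Most of that sum was COL1A1, which fell from 13.4 to 4.29 CPM, while LUM (log2 fold change 1.78) and PDGFRB (1.43) were higher. Hepatocyte markers are of interest because the liver is rich in AKR1C enzymes. All 6 were in the table, with a sum of 15.4 to 17.6 CPM in parental LNCaP and of 104 to 126 in LNCaP-enzaR. TTR alone carried that rise, from 3.59 to 103 CPM, whereas ALB fell from 7.92 to 0.691 CPM (log2 fold change −3.51). Of the 5 tested, 2 were higher and 1 lower in LNCaP-enzaR, and APOB had at most 3 counts in every library. The share of mitochondrial transcripts was 6.72% to 7.06% in parental LNCaP and 14.75% to 15.53% in LNCaP-enzaR. Replicate 1 of LNCaP-enzaR stood apart from the other replicates of its line, with a chi-square per degree of freedom of 31.4 and 39.8 against them, compared with 7.42 between those 2 and 5.88 to 9.82 among parental libraries. These marker genes were named after their values were seen. Apart from fits without single libraries or without mitochondrial genes, the part of these differences in the results was not tested.

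The copies of the AKR1C family are so alike that their sequences bear on how far their counts can be told apart, and are therefore shown first. AKR1C1 and AKR1C2 differed at 19 of 969 coding bases, an identity of 98.04%, and their longest identical run was 186 bases. AKR1C3 was less alike, with 91.43% identity to AKR1C1 and 91.02% to AKR1C2. The stretch below, coding bases 103 to 162 of each gene in GRCh38, holds 10 of the 19 differences between AKR1C1 and AKR1C2. Capitals mark the 15 bases that are not the same in all 3 genes.
AKR1C1, chr10:4965932-4965991, plus strand: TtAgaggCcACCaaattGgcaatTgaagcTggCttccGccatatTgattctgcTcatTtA
AKR1C2, chr10:5001604-5001663, minus strand: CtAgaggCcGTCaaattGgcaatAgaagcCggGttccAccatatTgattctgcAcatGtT
AKR1C3, chr10:5096428-5096487, plus strand: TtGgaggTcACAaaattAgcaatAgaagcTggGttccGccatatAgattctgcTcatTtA
A read covering this stretch can be assigned to 1 copy, but elsewhere a read may fit several. Of all 100-base windows along the main transcript, 12.65% for AKR1C1, 27.76% for AKR1C2 and 7.82% for AKR1C3 were also present, base for base, in another AKR1C gene. For 150-base windows the shares were 7.91%, 17.22% and 2.12%. The main transcripts differ in length, 6543, 3215 and 1186 bases. Within the coding sequence, 969 bases in each gene, the shares of 100-base windows were 20.69%, 26.44% and 9.77%. How the counting treated reads that match several copies is not stated, so the split of counts between AKR1C1 and AKR1C2 above all is uncertain, whereas their sum is less so.

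All 10 enzymes passed the filter on low counts, the lowest count of any being 10. Of them, 7 passed the threshold (adjusted p no higher than 0.05 together with a 1.5-fold change or more in either direction), against 42.7% of the 19711 genes tested. AKR1C1, AKR1C2, AKR1C3, HSD3B1, HSD17B4 and SRD5A1 were higher in LNCaP-enzaR (6 genes, where 23.3% of all tested genes were higher) and HSD17B11 was lower (1 gene, 19.5% of all). HSD17B10, SRD5A3 and STS did not pass. By the adjusted p alone, whatever the fold, 7 enzymes were higher (33.5% of all tested genes) and 2 lower (32.8%), or 9 against 66.3%. With a fold limit of 2, 5 remained (28.2% of all), namely the AKR1C genes and HSD3B1 as higher (16.4% of all) and HSD17B11 as lower (11.8%). The libraries of the lines did not overlap for 9 of the 10, SRD5A3 being the exception, against 70.6% of all tested genes. The median log2 fold change was 0.73 over the 10 enzymes and 0.013 over all tested genes. Fold changes are LNCaP-enzaR over parental, with SE and adjusted p from edgeR's quasi-likelihood test. Without replicate 1 of LNCaP-enzaR, the log2 fold changes were 5.94 for AKR1C1, 4.33 for AKR1C2, 3.34 for AKR1C3, 4.17 for HSD3B1, 0.81 for HSD17B4, 0.68 for SRD5A1 and −1.39 for HSD17B11, each still past the threshold, and −0.39 for HSD17B10 and −0.09 for SRD5A3. In bulk RNA, a change in the share of cells that express a gene and a change in expression per cell cannot be told apart.

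**Figure D1:**
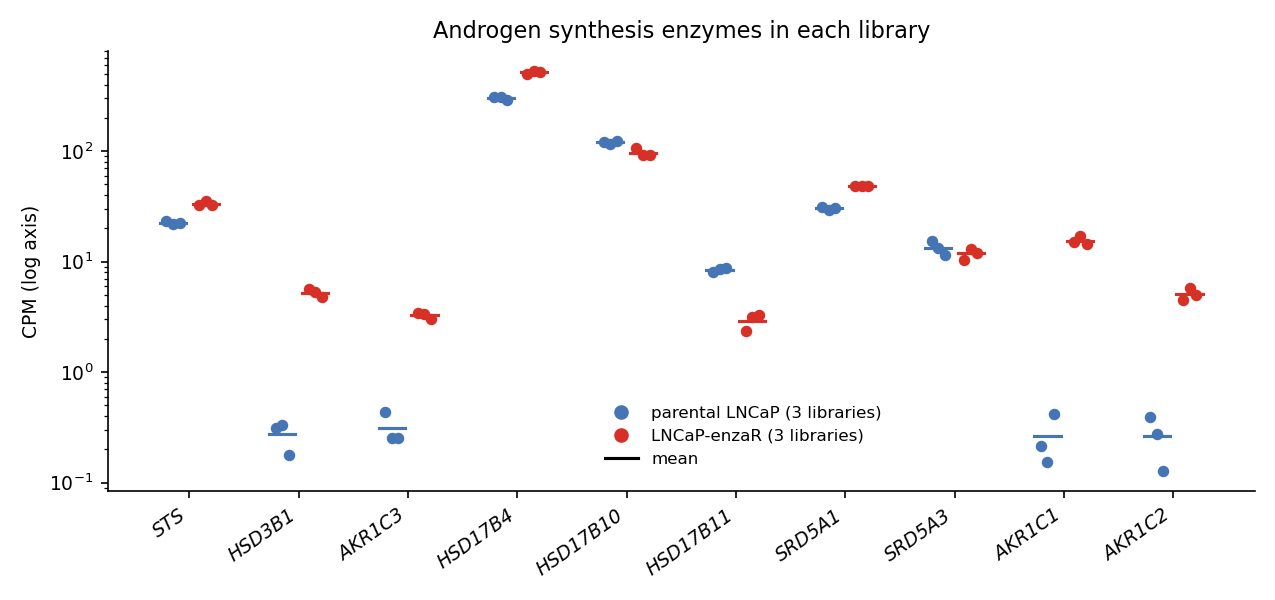
Expression of the 10 enzymes (CPM, log axis) in each of the 3 parental LNCaP and 3 LNCaP-enzaR libraries, with points for libraries and bars for the mean of a line, ordered by role. AKR1C1, AKR1C2, AKR1C3 and HSD3B1 sit below 0.5 CPM in every parental library and at 3.02 CPM or more in every LNCaP-enzaR library, while the points of SRD5A3 overlap.

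The first step from circulating precursor is removal of sulfate by STS, steroid sulfatase. STS (ENSG00000101846.8, chrX:7147237-7804358) had 23.5, 21.9 and 22.3 CPM in the parental libraries and 32.4, 35.4 and 32.8 CPM in LNCaP-enzaR. All LNCaP-enzaR libraries were above all parental ones, with means of 22.6 ± 0.839 and 33.5 ± 1.61 CPM (SD, n = 3). The log2 fold change was 0.57 (SE 0.0676, edgeR adjusted p = 3.69e-06), just under the fold limit of 1.5, and the fold was 1.48. It passed that limit with several other settings, including upper-quartile scaling (0.67), protein-coding genes only (0.59) and without LNCaP-enzaR replicate 1 (0.60).

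HSD3B1 encodes 3-beta-hydroxysteroid dehydrogenase type 1, through which DHEA enters the pathway to potent androgens. HSD3B1 (ENSG00000203857.10, chr1:119507198-119515054) had 29, 30 and 14 counts in parental LNCaP and 492, 466 and 470 in LNCaP-enzaR. The corresponding levels were 0.313, 0.330 and 0.178 CPM against 5.70, 5.28 and 4.74 CPM. The gene was thus detected at a low level in every parental library and rose 18.8-fold (log2 fold change 4.23, SE 0.2, adjusted p = 1.84e-10). Its relative HSD3B2, the form known from adrenal and gonad, had 0 to 3 counts in parental LNCaP and 8 to 11 in LNCaP-enzaR and was not tested. Of the 50-base windows of the HSD3B1 transcript, 8.46% also occurred in another gene, and of the 100-base windows 0.25%.

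AKR1C3, also called 17-beta-hydroxysteroid dehydrogenase type 5, reduces androstenedione to testosterone. AKR1C3 (ENSG00000196139.14, chr10:5035354-5107686) had 40, 23 and 20 counts in parental LNCaP and 295, 295 and 300 in LNCaP-enzaR, or 0.432, 0.253 and 0.255 CPM against 3.42, 3.34 and 3.02 CPM. It rose 10.3-fold (log2 fold change 3.36, SE 0.219, adjusted p = 5.79e-09), and every LNCaP-enzaR library was above the highest parental one.

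AKR1C1 and AKR1C2 lie beside AKR1C3 on chromosome 10 and are known mainly as reductases that inactivate steroids. AKR1C1 preferentially inactivates progesterone, and AKR1C2 reduces dihydrotestosterone to 3-alpha-androstanediol. AKR1C1 (ENSG00000187134.14, chr10:4963253-4983283) had 20, 14 and 33 counts in parental LNCaP and 1299, 1512 and 1419 in LNCaP-enzaR, or 0.216, 0.154 and 0.420 CPM against 15.1, 17.1 and 14.3 CPM. It had the highest log2 fold change of the 10 enzymes, 5.91 (SE 0.199, adjusted p = 5.86e-12), and 175 of the tested genes, 0.888%, had a higher one. AKR1C2 (ENSG00000151632.17, chr10:4987400-5018031) had 36, 25 and 10 counts in parental LNCaP and 391, 509 and 499 in LNCaP-enzaR. Its levels were 0.389, 0.275 and 0.127 CPM against 4.53, 5.76 and 5.03 CPM, and it rose 18.9-fold (log2 fold change 4.24, SE 0.245, adjusted p = 1.59e-09).

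Because of the shared sequence, the 3 AKR1C genes were also taken as 1 gene. Their summed counts were 96, 62 and 63 in parental LNCaP and 1985, 2316 and 2218 in LNCaP-enzaR. The sum had a mean of 0.840 ± 0.181 CPM in parental LNCaP and 23.9 ± 2.07 CPM in LNCaP-enzaR (SD, n = 3). It rose 28.3-fold (log2 fold change 4.82, SE 0.133, adjusted p = 8.84e-13). A different division of reads between the copies would leave that sum in place, apart from reads that were discarded or counted more than once. No exonic base of the AKR1C genes overlapped an exon of another gene.

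The make-up of the sum also differed between the lines. AKR1C1 took 20.8% (exact binomial 95% interval 13.2% to 30.3%), 22.6% (12.9% to 35%) and 52.4% (39.4% to 65.1%) of AKR1C counts in the parental libraries. In LNCaP-enzaR it took 65.4% (63.3% to 67.5%), 65.3% (63.3% to 67.2%) and 64.0% (61.9% to 66.0%). These intervals cover counting error only, and the parental shares rest on fewer than 100 counts a library, with replicate 3 apart from the other two. AKR1C3 made up 36.8% ± 4.97 of AKR1C counts in parental LNCaP and 13.7% ± 1.07 in LNCaP-enzaR (SD, n = 3). AKR1C2 made up 31.2% ± 13.4 in parental LNCaP and 21.4% ± 1.49 in LNCaP-enzaR.

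Ratios within a library, which do not depend on how libraries are scaled, gave the same order. On the log2 scale the ratio of AKR1C1 to AKR1C3 counts was −0.98, −0.70 and 0.71 in parental LNCaP and 2.14, 2.36 and 2.24 in LNCaP-enzaR, a difference of 2.57. The ratio of AKR1C2 to AKR1C3 was −0.15, 0.12 and −0.97 against 0.41, 0.79 and 0.73, a difference of 0.97. Neither ratio overlapped between the lines, and each had p = 0.10 by the two-sided exact permutation test, the smallest that 3 against 3 allows, and 0.10 after adjustment over the 3 ratios tested. AKR1C1, and by a smaller margin AKR1C2, were therefore higher relative to AKR1C3 in every LNCaP-enzaR library than in any parental one. For AKR1C2 the nearest libraries were at 0.12 and 0.41. The former, parental replicate 2, had only 25 counts of AKR1C2 and 23 of AKR1C3, so counting error alone could span that gap.

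**Figure D2:**
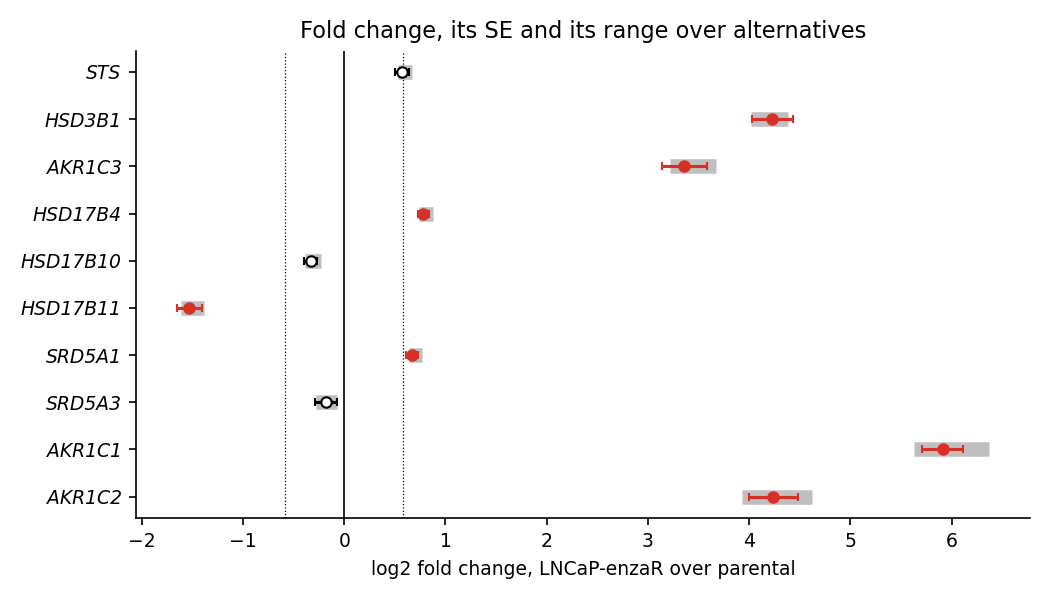
Log2 fold change of each enzyme, LNCaP-enzaR over parental LNCaP, with whiskers for its SE, a grey band for its range over the other settings tried, and dotted lines at a fold of 1.5 in either direction. Filled red points passed the threshold. AKR1C1 (5.91), AKR1C2 (4.24), HSD3B1 (4.23) and AKR1C3 (3.36) lie far to the right, HSD17B11 (−1.53) to the left, and STS (0.57) beside the dotted line.

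The windows upstream of the AKR1C starts in RefSeq are shown because these neighbors moved together. The genes as counted begin further upstream. The windows of AKR1C2 and AKR1C3, and most of that of AKR1C1, therefore lie within the counted gene. Sequences are the 250 bases before each start in RefSeq (GRCh38.p14), where all 10 enzymes were found. AKR1C3 has an upstream start and the start of its main transcript, each with its own window. Capitals mark a run of 12 bases that all 4 windows hold.
AKR1C1, chr10:4963165-4963414, plus strand: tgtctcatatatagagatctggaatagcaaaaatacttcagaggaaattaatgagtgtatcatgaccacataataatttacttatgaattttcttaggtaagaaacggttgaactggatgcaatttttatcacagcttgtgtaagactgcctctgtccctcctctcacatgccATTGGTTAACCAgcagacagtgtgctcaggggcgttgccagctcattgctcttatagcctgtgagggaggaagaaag
AKR1C2, chr10:5003858-5004107, minus strand: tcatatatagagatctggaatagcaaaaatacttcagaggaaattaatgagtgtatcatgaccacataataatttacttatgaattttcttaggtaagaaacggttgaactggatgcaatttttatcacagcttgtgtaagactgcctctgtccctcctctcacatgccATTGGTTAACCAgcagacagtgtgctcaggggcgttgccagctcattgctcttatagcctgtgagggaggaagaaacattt
AKR1C3 upstream start, chr10:5048531-5048780, plus strand: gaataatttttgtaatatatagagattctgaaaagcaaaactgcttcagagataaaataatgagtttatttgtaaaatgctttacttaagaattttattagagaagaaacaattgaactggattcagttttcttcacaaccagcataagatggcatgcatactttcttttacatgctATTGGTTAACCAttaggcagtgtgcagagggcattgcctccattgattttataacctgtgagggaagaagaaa
AKR1C3 main start, chr10:5094164-5094413, plus strand: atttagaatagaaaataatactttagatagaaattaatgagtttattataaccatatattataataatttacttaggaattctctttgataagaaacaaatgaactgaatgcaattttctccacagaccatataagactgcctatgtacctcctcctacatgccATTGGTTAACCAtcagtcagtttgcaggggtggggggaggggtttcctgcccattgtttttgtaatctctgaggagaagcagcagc
The AKR1C1 and AKR1C2 windows were 96.5% identical over 254 aligned columns, and the other pairs were 63.9% to 71.4% identical. The shared run ATTGGTTAACCA was picked after the windows were seen, and occurs in 5 of 35116 RefSeq promoter windows of 300 bases (0.0142%), the fifth belonging to PPFIA2. It starts with the reverse complement of the CCAAT box, which 34.6% of all windows hold on either strand, so the overlap of the 2 motifs is complete. The core of the antioxidant response element, TGACNNNGC, occurred on either strand in 13.3% of all windows and in none of the AKR1C or HSD3B1 windows. Among the other enzymes it was found upstream of SRD5A3 and of 1 of the 5 STS starts. The full androgen response element, AGAACA and TGTTCT with any 3 bases between them, was in 1 of all windows (0.00285%) and in none of the enzymes. At these rates, absence from so few windows cannot set the enzymes apart from other genes. These are matches of letters only, within windows of 300 bases.

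Of the remaining 17-beta-hydroxysteroid dehydrogenases, 1 rose, 1 fell and 1 did not pass. HSD17B4, a peroxisomal enzyme that oxidizes 17-beta-hydroxysteroids and takes part in the breakdown of fatty acids, lies at chr5:119452465-119637199 (ENSG00000133835.18). It had 308, 306 and 289 CPM in parental LNCaP and 501, 533 and 516 CPM in LNCaP-enzaR. All LNCaP-enzaR libraries were higher, and the log2 fold change was 0.78 (SE 0.0525, adjusted p = 8.57e-09, 1.72-fold).

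HSD17B11, which oxidizes 3-alpha-androstanediol to androsterone and is found on lipid droplets, lies at chr4:87336515-87391188 (ENSG00000198189.11). It had 8.05, 8.51 and 8.78 CPM in parental LNCaP and 2.36, 3.15 and 3.26 CPM in LNCaP-enzaR. It was the 1 enzyme of the 10 to fall past the threshold, being 2.88-fold lower (log2 fold change −1.53, SE 0.125, adjusted p = 6.92e-08). HSD17B10, a mitochondrial enzyme that can oxidize 3-alpha-androstanediol back to dihydrotestosterone, lies at chrX:53431258-53434370 (ENSG00000072506.14). It had 120, 117 and 124 CPM in parental LNCaP and 106, 91.3 and 91.5 CPM in LNCaP-enzaR. The lines did not overlap and the adjusted p was 4.9e-04, but the log2 fold change of −0.33 (SE 0.0651) was short of the fold limit. Exons of other genes covered 7.73% of the exonic bases of HSD17B10 and 5.02% of those of HSD17B11.

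The last step, reduction of testosterone to dihydrotestosterone, was represented by SRD5A1 and SRD5A3. SRD5A1 encodes the type 1 enzyme, which prostate cancers are known to use in place of the type 2 enzyme of normal prostate. SRD5A1 (ENSG00000145545.12, chr5:6633427-6674386) had 31.5, 29.2 and 30.5 CPM in parental LNCaP and 48.6, 48.1 and 48.5 CPM in LNCaP-enzaR. It rose 1.59-fold (log2 fold change 0.67, SE 0.061, adjusted p = 2.17e-07) with little spread in either line. SRD5A2, the type 2 gene, had 0 to 5 counts in either line and was not tested.

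SRD5A3, which is known above all for reducing polyprenol to dolichol for protein glycosylation, lies at chr4:55346213-55373100 (ENSG00000128039.13). It had 15.5, 13.2 and 11.5 CPM in parental LNCaP and 10.4, 13.1 and 12.0 CPM in LNCaP-enzaR, so that the lines overlapped (log2 fold change −0.18, SE 0.113, adjusted p = 0.17). Of its exonic bases, 34.7% also lie in exons of other genes, among them RP11-177J6.2, with 6 to 21 counts a library. Every 50-, 100- and 150-base window of the SRD5A3 coding sequence was also present in that gene. How reads that fit both were counted is not stated. The level of SRD5A3, also per kilobase, and its ratio to SRD5A1 are therefore uncertain. The log2 ratio of SRD5A1 to SRD5A3 was 1.03, 1.14 and 1.40 in parental LNCaP and 2.23, 1.87 and 2.02 in LNCaP-enzaR. It was higher in every LNCaP-enzaR library, by 0.85 (two-sided exact permutation p = 0.10, 0.10 adjusted over the 3 ratios).

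Levels of different genes were compared as CPM per kilobase of exon. In parental LNCaP the enzymes fell into 2 ranges, with HSD17B10 (42.7), HSD17B4 (12.1), SRD5A1 (3.98), HSD17B11 (3.62), STS (1.83) and SRD5A3 (1.74) above HSD3B1 (0.112), AKR1C3 (0.0801), AKR1C2 (0.0433) and AKR1C1 (0.030). Neighbors in that order whose libraries overlapped were STS and SRD5A3, HSD3B1 and AKR1C3, and AKR1C2 and AKR1C1. In LNCaP-enzaR the gap between the ranges had closed. HSD3B1 (2.14) followed STS (2.72), and AKR1C1 (1.77), last in parental LNCaP, overlapped HSD3B1 and SRD5A3 (1.53). HSD17B11 (1.25) overlapped SRD5A3, and AKR1C2 (0.839) and AKR1C3 (0.834) overlapped each other at the end of the order.

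**Figure D3:**
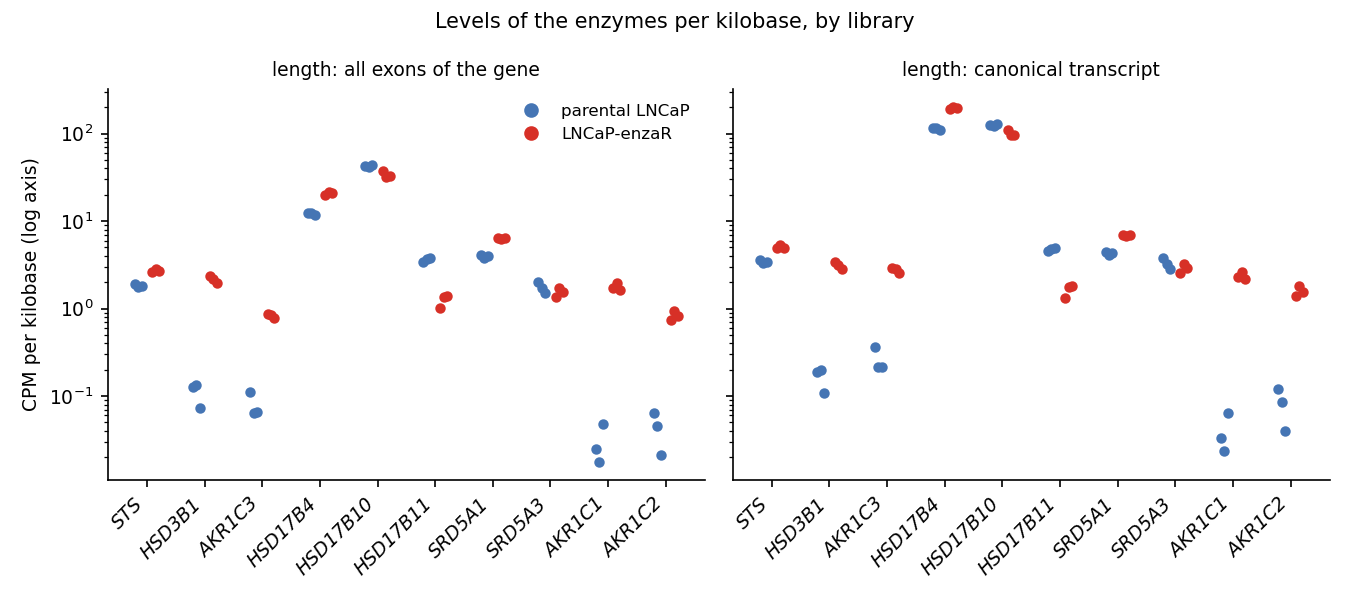
Levels of the enzymes as CPM per kilobase (log axis) in each library, with blue points for parental LNCaP and red for LNCaP-enzaR. The left panel divides by all exons of a gene and the right by its canonical transcript, which raises HSD17B4 from 12.1 to 115 in parental LNCaP. In both panels the parental points of HSD3B1 and the AKR1C genes lie below those of every other enzyme.

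The order depends on the length used. HSD17B4 moved because its exons together cover 24901 bases but its canonical transcript 2628. By the canonical length, a choice made after the data were seen, HSD17B4 had 115 CPM per kilobase in parental LNCaP and 197 in LNCaP-enzaR, beside 126 and 101 for HSD17B10. HSD17B10 was then first in parental LNCaP only. AKR1C3 also moved, since its exons together cover 3911 bases but its canonical transcript 1186. By the canonical length it had 0.264 CPM per kilobase in parental LNCaP, with no overlap with HSD3B1 (0.164), and 2.75 in LNCaP-enzaR. There it was above AKR1C1 (2.37), with overlapping libraries, and above HSD17B11 (1.64) and AKR1C2 (1.59) without overlap.

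The genes around each locus were described beside the enzymes. Of 53 other tested genes within 500 kb, 6 were higher and 12 lower in LNCaP-enzaR, or 34% past the threshold, against 42.7% of all tested genes (23.3% higher and 19.5% lower). Around the AKR1C genes only 2 others were tested. NET1 was lower (log2 fold change −1.22, adjusted p = 2.96e-10), and CALML3-AS1 had −0.23 (adjusted p = 0.757). Of 8 genes around HSD3B1, HAO2 was higher (2.38, adjusted p = 1.15e-07) while PHGDH (−1.38, adjusted p = 1.93e-10) and ZNF697 (−1.13, adjusted p = 1.12e-07) were lower. None of the 9 genes around HSD17B11 passed. Neighbors were named after their values were seen.

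**Figure D4:**
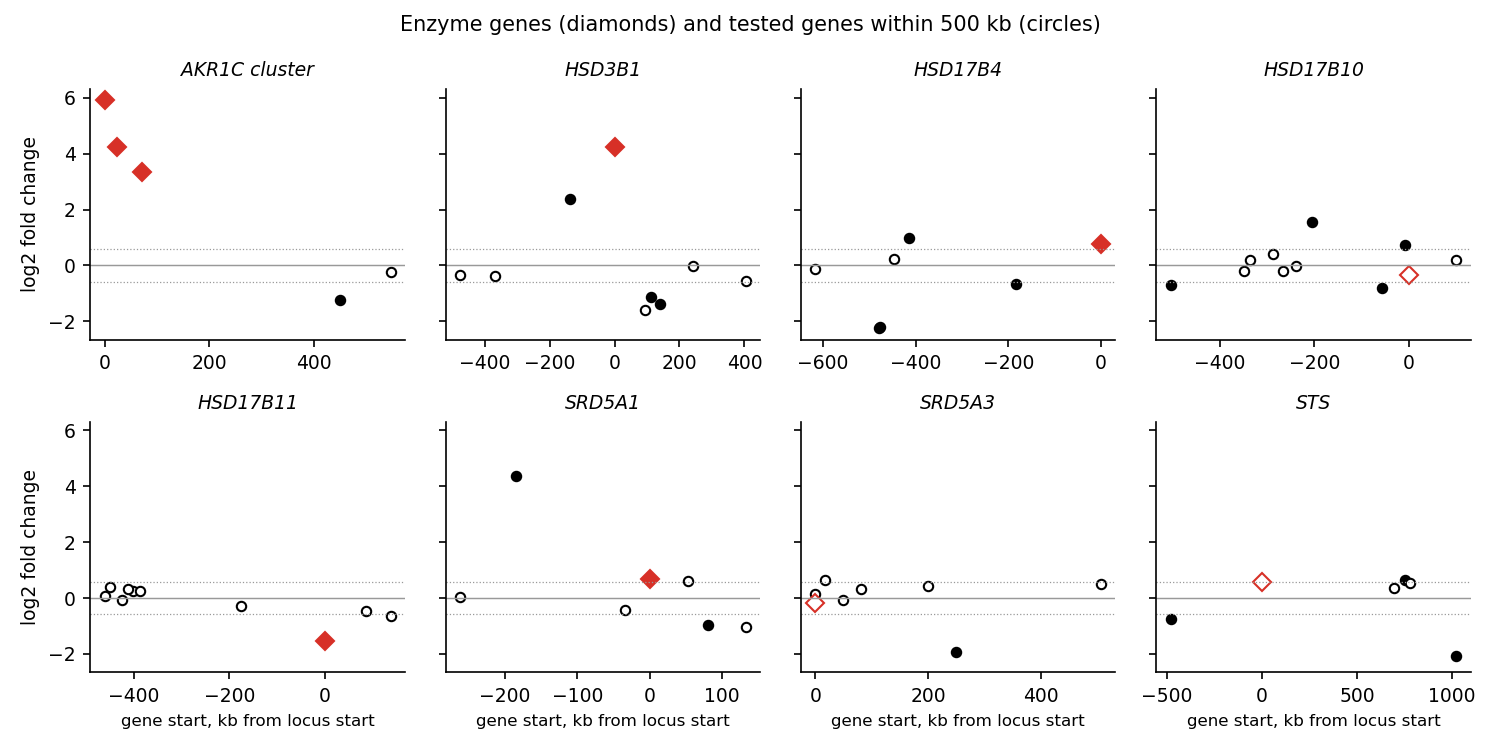
Log2 fold change, LNCaP-enzaR over parental LNCaP, of the enzyme genes (red diamonds) and of the other tested genes within 500 kb of them (circles), against the distance of the gene's start from the start of the locus in kb. Filled symbols passed the threshold, and dotted lines mark a fold of 1.5. The 3 AKR1C genes are the only genes above 0 in their panel, and HSD17B11 is the only gene past the threshold in its own.

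The wider pathway was examined through 9 lists of 76 genes, of which 67 were in the table and 50 were tested. Of the latter, 19 were higher and 13 lower in LNCaP-enzaR, 64% in all, against 42.7% of all tested genes. The lists were chosen with earlier results of these data known. Of the higher genes, STAR, AKR1B10, SLCO1B1, CYP3A4 and CYP3A7 passed the filter on low counts only through LNCaP-enzaR. Of the lower genes, CYP11A1 and AKR1D1 passed it only through parental LNCaP. The directions of these genes were thus largely set in advance, and the 64% is a description only. The counts for each list are to be read beside the 23.3% of all tested genes that were higher and the 19.5% that were lower.

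Of 8 genes tested upstream of the enzymes, in the supply and cleavage of cholesterol, 2 rose and 1 fell, with a median log2 fold change of 0.29. CYP11A1, which cleaves the cholesterol side chain as the first step of steroid synthesis, fell from 2.86 ± 0.377 to 0.110 ± 0.0299 CPM (log2 fold change −4.69, adjusted p = 8.2e-10). With 7 to 12 counts in LNCaP-enzaR, it passed the filter on low counts only through parental LNCaP, so its direction was largely set in advance. FDX1, the ferredoxin that feeds CYP11A1 electrons, rose from 41.8 ± 0.34 to 119 ± 7.71 CPM (1.51, adjusted p = 4.1e-11). STAR, the other gene that rose, had 5 to 23 counts in parental LNCaP and 51 to 67 in LNCaP-enzaR. It passed the filter on low counts only through LNCaP-enzaR, so its direction was largely set in advance. CYP17A1, which makes DHEA and androstenedione from pregnane precursors, had at most 2 counts in any library. At CYP17A1, transcripts for making androgen from cholesterol were thus at or under 3 counts in both lines.

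Of 6 other 17-beta-hydroxysteroid dehydrogenases tested, 3 rose and 2 fell (median 0.16). HSD17B8 rose from 22.6 ± 1.24 to 40.1 ± 3.93 CPM (0.83, adjusted p = 3.75e-07), and HSD17B12, an enzyme of fatty acid elongation, fell from 25.3 ± 1.46 to 10.2 ± 1.30 CPM (−1.31, adjusted p = 1.61e-08), with 21.9% of its exonic bases shared with other genes. Among the other tested list genes named here, that share was highest for CYP3A7 (42.6%), CYP11A1 (27.0%), SULT1A1 (23.1%) and NQO1 (19.4%). HSD17B3 and AKR1C4 were not analysed here. Of 4 other AKR1 genes, 1 rose and 1 fell (median 0.35). AKR1B10, an aldo-keto reductase of retinal and other aldehydes, rose from 0.0809 ± 0.0556 to 1.95 ± 0.192 CPM (4.58, adjusted p = 4.8e-08). With 2 to 12 counts in parental LNCaP, it passed the filter on low counts only through LNCaP-enzaR. Of 3 tested genes in the list of SRD5A2 and oxidative 3-alpha-hydroxysteroid dehydrogenases, RDH16 was higher (0.89, adjusted p = 0.00277) and the median was 0.40.

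Around STS, 5 of 6 genes for steroid sulfation and sulfatase activation rose and none fell (median 0.71). The list pools genes that serve sulfation with SUMF1 (0.67) and SUMF2 (0.63), which serve sulfatase activation and also rose. SULT2A1, also in the list, was not analysed here. SULT1A1, a sulfotransferase, rose from 9.91 ± 0.256 to 20 ± 1.45 CPM (1.01, adjusted p = 4.76e-08). PAPSS1, which makes the sulfate donor, rose from 77.3 ± 3.21 to 124 ± 3.32 CPM (0.68, adjusted p = 7.95e-08). Both tested uptake carriers rose. SLCO4A1 went from 27.5 ± 0.608 to 44.7 ± 3.77 CPM (0.70, adjusted p = 7.36e-07). SLCO1B1 had 0 to 6 counts in parental LNCaP and 17 to 25 in LNCaP-enzaR. It passed the filter on low counts only through LNCaP-enzaR, so its direction was largely set in advance. The other 6 carriers in the table had at most 5 counts in any library and were not tested.

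Of 6 genes for clearance and aromatization, 3 rose and 2 fell (median 0.96). Among those that rose, CYP3A5 went from 2.02 ± 0.109 to 4.48 ± 0.651 CPM (1.15, adjusted p = 4.9e-06). CYP3A4 had 0 to 5 counts in parental LNCaP and 38 to 59 in LNCaP-enzaR. CYP3A7 had 0 to 6 in parental LNCaP and 21 to 32 in LNCaP-enzaR. Both passed the filter on low counts only through LNCaP-enzaR, so their direction was largely set in advance. Those that fell were the glucuronosyltransferases that inactivate dihydrotestosterone and its metabolites. UGT2B15 decreased from 78.3 ± 3.88 to 14.1 ± 1.43 CPM (−2.48, adjusted p = 3.86e-12) and UGT2B17 from 90.4 ± 5.76 to 24.1 ± 2.49 CPM (−1.91, adjusted p = 5.21e-11). They are known as closely alike copies. Their shared sequence was not measured here, and their separate values are uncertain. Neither of the 2 tested genes of 11-beta-hydroxysteroid metabolism passed (median 0.23).

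AKR1C genes and AKR1B10 are known targets of NRF2, the transcription factor of the oxidative stress response, so 13 other NRF2 targets were listed. Of these, 2 rose and 7 fell (median −0.59). NQO1, the quinone reductase often used as its reporter, fell from 70.3 ± 1.45 to 5.19 ± 0.338 CPM (−3.76, adjusted p = 3.32e-14), and ME1, malic enzyme, from 67.2 ± 1.71 to 12.3 ± 1.01 CPM (−2.45, adjusted p = 1.84e-12). HMOX1, heme oxygenase (0.98, adjusted p = 3.12e-08), and GCLC, a subunit of the enzyme that starts glutathione synthesis (0.67, adjusted p = 1.69e-06), were the 2 that rose, and were named after their values were seen. Whether NRF2 had a part in the changes of the AKR1C genes was not tested.

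**Figure D5:**
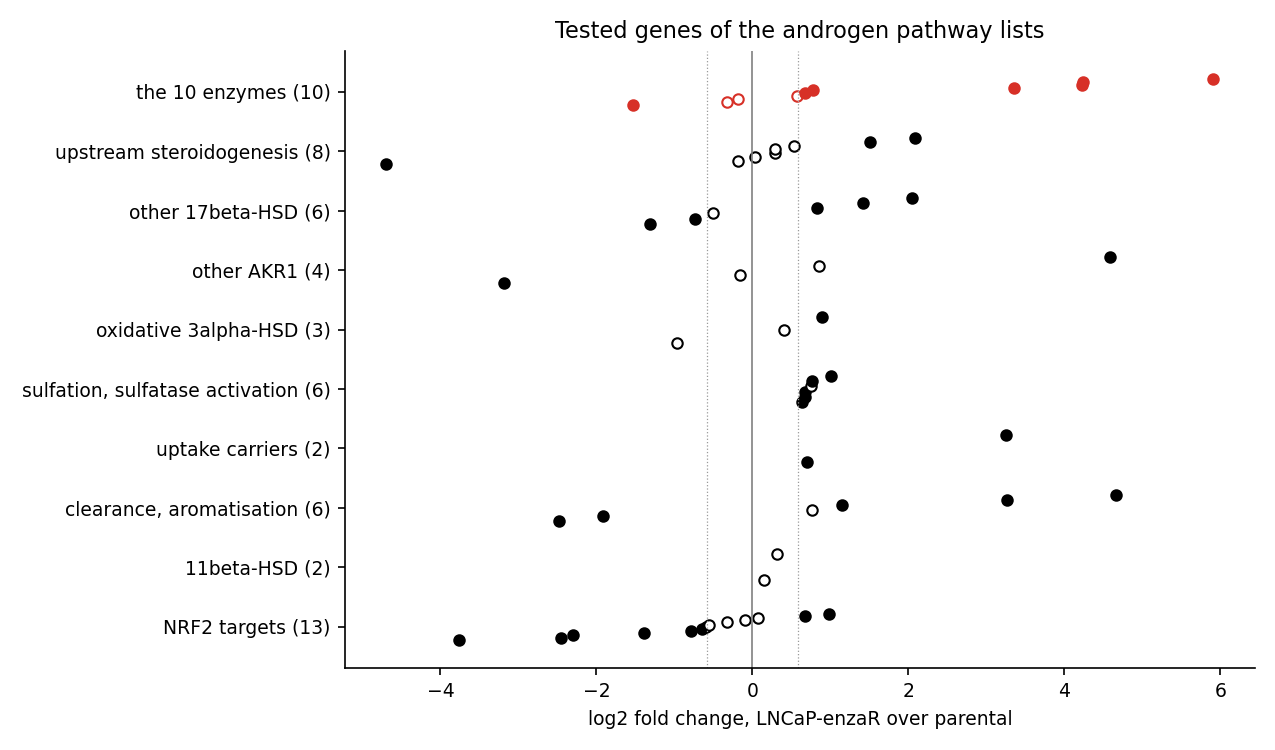
Log2 fold change, LNCaP-enzaR over parental LNCaP, of the 10 enzymes (red) and of the tested genes of the 9 lists (black), with the number tested in parentheses and dotted lines at a fold of 1.5. Filled points passed the threshold. The genes of sulfation and sulfatase activation all lie right of 0, with a median of 0.71, and the median of the NRF2 targets is −0.59.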

How the data were processed

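The authors prepared mRNA libraries, trimmed paired-end reads with Cutadapt, aligned them with STAR to GRCh38 with GENCODE annotation, and deposited raw counts per gene from featureCounts. Strand setting and treatment of multiply mapped reads are not stated. Groups were read from sample titles. Genes were kept by edgeR's filterByExpr (19711 of 35554), scaled by TMM and tested with the robust quasi-likelihood F-test (edgeR 4.0.16, R 4.3.3), with Benjamini-Hochberg adjustment over all genes tested. The limits, an adjusted p of 0.05 and a fold of 1.5, are those of the study's methods, which used DESeq2 (version 1.42.0 was run here as an alternative). SE is the log2 fold change divided by the square root of F. For ratios, 0.5 was added to each count.

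Exon lengths, coding sequence and shared windows came from GENCODE v44, which held 99.8% of the gene identifiers, and 91.4% of those had the same coordinates. Promoters came from RefSeq.

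The 10 enzymes and all lists were chosen with earlier results of these data known. Named list genes are up to 2 per list with the smallest p-values, at least 1 CPM in a line and no overlap. SLCO1B1, CYP3A4, CYP3A7, STAR and AKR1D1 were named besides, for their low counts in 1 line. CYP3A5, SUMF1 and SUMF2 were named after their values were seen. The CCAAT box was searched after the windows were seen, in place of a TATA box. The test was checked on simulated counts. Other settings tried were DESeq2, other scalings and filters, protein-coding genes only, no mitochondrial genes, other fold limits, added counts and lengths, the replicate number as a block, and leaving out each library.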

Additional observations from a re-analysis of the deposited data

How the results depend on the processing

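Every enzyme kept its direction under every setting tried. The log2 fold changes ranged from 5.63 to 6.37 for AKR1C1, 3.93 to 4.62 for AKR1C2, 3.22 to 3.67 for AKR1C3 and 4.02 to 4.38 for HSD3B1. The change in SRD5A3 ranged from −0.28 to −0.07, with adjusted p of 0.0453 to 0.616. With the fold limit kept at 1.5, STS was the only enzyme to change its side of the threshold. A fold limit of 2 left 5 enzymes, without HSD17B4 and SRD5A1, and no fold limit gave 9. STS was past the fold limit with upper-quartile scaling (0.67), at least 10 counts in every library (0.59) and protein-coding genes only (0.59), and ranged from 0.53 to 0.60 when single libraries were left out, passing without parental replicate 1 (0.60), LNCaP-enzaR replicate 1 (0.60) or LNCaP-enzaR replicate 3 (0.59). Upper-quartile scaling moved the median of all genes by 0.10 and the share of calls that were higher from 54.5% to 60.9%. With a fold limit of 2, 19 list genes and 10 neighboring genes passed, against 32 and 18, and without a fold limit 30 neighboring genes did. Measured by the longest or, as a choice made after seeing the data, the canonical transcript, 6 and 6 of the 10 enzymes kept their rank in parental LNCaP and 3 and 3 in LNCaP-enzaR. The 13 list genes named for the smallest p-values kept their calls in every fit that tested them.

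Replicate numbers did not pair the samples, since the deviations of libraries with the same number correlated at −0.0652, −0.00041 and −0.0507. With the replicate number as a block, 7 of the 10 enzymes passed and 8212 genes in all, against 8425 without it. DESeq2 called 8321. The low parental counts of the AKR1C genes and HSD3B1, 10 to 40 a library, limit the precision of their fold changes.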
